A study of Mus musculus with 18 samples.

Results

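The microRNA miR-24-3p was followed through chimeric reads, in which a miRNA is ligated to the RNA it was bound to in Argonaute 2 (CLEAR-CLIP), from mouse keratinocytes, the cells that build the epidermis, grown in culture. The reads taken are all those whose ligated miRNA was named mmu-miR-24-3p, 20854 of 1153545 chimeric reads in 5 pools. They lay on 19351 of 941862 distinct chimeras, a distinct chimera being 1 combination of pool, target position, strand and miRNA.

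Set 1 comprised 3 libraries of miR-200 double knockout cells (DKO) and 6 libraries of K14-Cre only control cells, in which Cre is driven by the keratin 14 promoter of basal keratinocytes. Set 2 comprised 3 libraries of miR-200 DKO cells, 3 libraries of miR-200 inducible cells induced with doxycycline (3 ug/ml, 24 hours), and 3 libraries of such inducible cells that were not induced, which served as the set 2 control. The set 2 control is therefore not the K14-Cre only line of set 1, and the labels do not say whether the DKO and inducible cells carry K14-Cre. Each group's libraries were deposited as 1 pool with no library names, so every group is 1 sample, no test between groups was possible, and the 95% intervals given here cover counting error only. The sets ran on different flow cells and have different controls, and these cannot be told apart from a difference between the sets. Ages, sexes and the number of clones or animals behind a line are not given in the sources used here.

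The pools held 48662 (set 1 DKO), 161692 (set 1 control), 210003 (set 2 DKO), 419117 (set 2 induced) and 314071 (set 2 uninduced control) reads. All 6 basal keratinocyte marker genes were found among targets, Krt15 with only 1 chimera. Together they held 0.175% to 0.292% of a pool's chimeras. Of the fibroblast markers 1 of 5 was found, of the melanocyte markers 2 of 5, of the immune markers 1 of 4 and of the endothelial markers 2 of 3, each list at no more than 0.00529% of a pool. Of the differentiated keratinocyte markers 3 of 5 were found, also at no more than 0.00529% of a pool, and Krt1 and Flg were at 0. Among marker miRNAs, the epithelial miR-205-5p and miR-203-3p together held 3.19% to 6.49% of a pool's reads. The 4 mesenchymal miRNAs held up to 0.0520%, the endothelial miR-126a-3p up to 0.0422% and the blood miRNAs up to 0.00371%.

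miR-24-3p is encoded at a pair of loci, each in a cluster with a miR-23 and a miR-27 gene, and the mature strand is the same from both. A miRNA guides Argonaute to transcripts through its seed, bases 2 to 8, and lowers their stability and translation. miR-24 is known for repressing the cell death gene Bcl2l11, the protease gene Furin and several cell cycle genes in various cell lines, and in human keratinocytes for acting on regulators of the actin cytoskeleton during differentiation. The mature strands that the results turn on are shown with the seed in capitals (RefSeq, GRCm38.p6), because the seed decides which target letters can pair.
miR-24-3p: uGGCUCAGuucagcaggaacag
miR-23a-3p: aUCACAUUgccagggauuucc
miR-27a-3p: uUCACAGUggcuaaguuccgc
miR-27b-3p: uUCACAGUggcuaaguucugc
miR-24-2-5p: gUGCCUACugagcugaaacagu
miR-24-1-5p: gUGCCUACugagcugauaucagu
The miR-24-3p letters lie at chr8:84208875-84208896 (Mir24-2, beside Mir23a and Mir27a) and at chr13:63301251-63301272 (Mir24-1, beside Mir27b), both on the plus strand. The miR-27 members share a seed with each other, as do the 5p arms of miR-24, and none of these seeds is that of miR-24-3p.

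Targets of miR-24-3p held the match to its seed more often than targets of other miRNAs did. Genome sequence was not used here, so matches were sought only in targets lying wholly inside a RefSeq window of 300 bases around a gene start, 250 before to 50 after it. The motif CTGAGCC, the reverse complement of bases 2 to 8, was read on the strand of the target. It was present in 11 of 69 such miR-24-3p targets (15.9%, interval 8.24% to 26.7%), against 23 of 2735 targets of all other miRNAs (0.841%, 0.534% to 1.26%). The 11 targets lay at 9 of the 49 places that the 69 targets covered. Of the same 69 targets, 9 held the match to miR-31-5p and 9 that to miR-182-5p, near the 11 with their own. These matches were also frequent in targets not ligated to the miRNA in question, at 4.88% for miR-31-5p and 9.31% for miR-182-5p. Of the other miRNAs compared below, miR-16-5p had its match in 4 of the miR-24-3p targets and the rest in at most 1. CTGAGCC or its reverse complement is present in 9.75% of the 32851 whole windows, which are longer than a target and were read on both strands. A stretch of at most 30 bases of 6 targets is given here, 5′ to 3′ on the strand of the target. The first match in each is in capitals, to show the letters around it.
Mbtd1 (chr11:93885995-93886024, plus strand): cgccctgctgattCTGAGCCccgcgtcgtg
Pex13 (chr11:23665851-23665880, minus strand): gtcgcttccCTGAGCCggagcggagctggc
Sema4b (chr7:80198588-80198617, plus strand): acttgagcaacCTGAGCCggaggaggacgc
Ttc4 (chr4:106678836-106678857, minus strand): agttCTGAGCCtgagcctacag
Ogt (chrX:101640156-101640185, plus strand): tgccgccccCTGAGCCcttcaaaacactga
Denn2b (chr7:109616675-109616700, minus strand): catgcataaaCTGAGCCgatcaaaag
The letters around the match differ from gene to gene. In Ttc4 the letters right after the capitals complete a further CTGAGCC, which overlaps the first. Mbtd1 (a chromatin reader), Pex13 (a peroxisome import factor) and Ogt (the enzyme that adds N-acetylglucosamine to proteins) are read here on the strand of the gene, as are Ttc4, a co-chaperone gene, and Denn2b, a gene of the DENN domain family. With the shorter match TGAGCC, the reverse complement of bases 2 to 7, 17 of 69 miR-24-3p targets matched (24.6%), at 11 of the 49 places, against 5.19% of other targets. Of the 6 targets that the shorter match added, 5 overlapped at 1 place, in the start window of Plet1os but on the opposite strand, inside the Plet1 site described with the sites.

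Where the window was on the strand of the target, 10 of 35 miR-24-3p targets held CTGAGCC (28.6%, 14.6% to 46.3%), against 1.07% of other targets. Of the 20 miRNAs with the most chimeras and a RefSeq sequence, 18 had at least 20 targets in such windows. Among them the share with the miRNA's own match reached 53.8% (miR-31-5p), and was 0 of 131 for miR-21a-5p (at most 2.78%) and 0 of 38 for miR-183-5p (at most 9.25%). miR-24-3p stood 5th by this share. Its interval overlapped those of most of the others, among them miR-200b-3p (32.3%), miR-200c-3p (20.0%) and miR-29a-3p (15.2%). The cluster partners had lower shares, 4.55% for miR-23a-3p (1.26% to 11.2%) and 0.909% for miR-27a-3p (0.0230% to 4.96%). The interval of miR-23a-3p also overlapped that of miR-24-3p. Gene start windows hold few targets, and the share along whole transcripts was not analysed here.

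**Figure D1:**
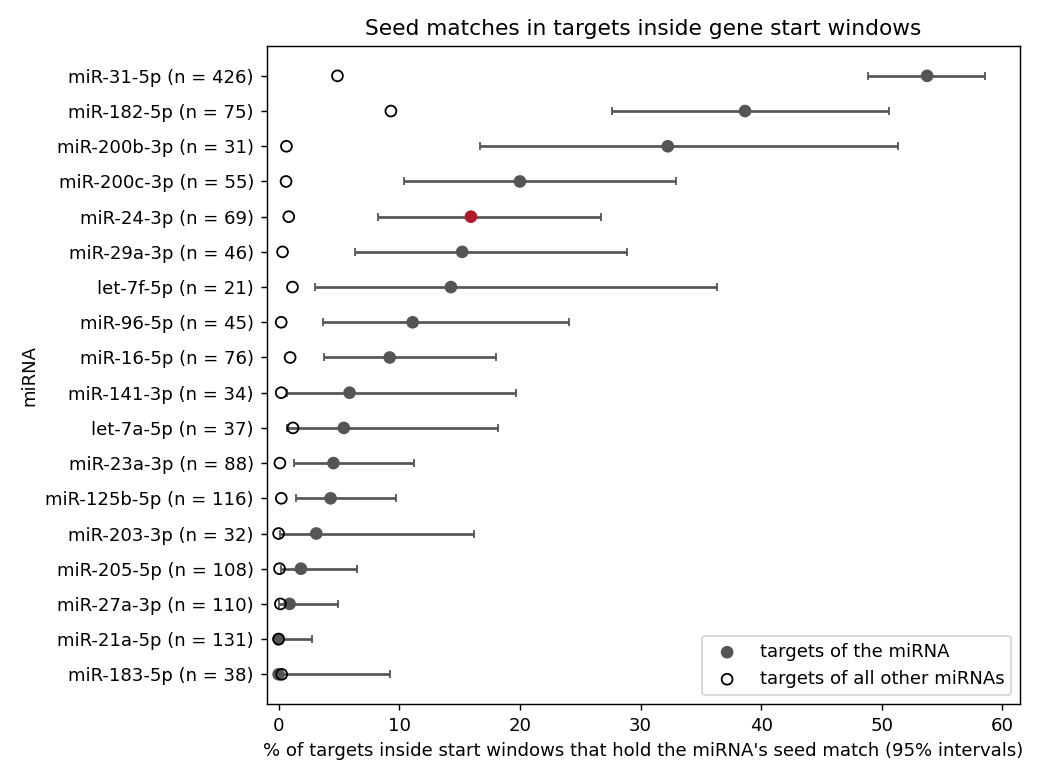
Percent of targets inside gene start windows that hold the match to bases 2 to 8 of the ligated miRNA (filled points, with 95% counting intervals; miR-24-3p in red) and percent of all other miRNAs' targets that hold the same match (open points). Rows are miRNAs, with the number of targets in brackets; miR-24-3p is at 15.9%, against 0.841% in targets of other miRNAs.

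The share of miR-24-3p was higher in DKO pools than in their controls, and did not differ beyond counting error between induced and uninduced cells. In set 1, 1042 reads came from DKO cells (2.14%, 2.01% to 2.27%) and 2364 from control cells (1.46%, 1.40% to 1.52%). In set 2, 6458 reads came from DKO cells (3.08%, 3.00% to 3.15%), 6307 from induced cells (1.505%, 1.47% to 1.54%) and 4683 from uninduced cells (1.49%, 1.45% to 1.53%). Both DKO pools thus lay above the 3 other pools, and no interval of a DKO pool met that of another pool. By share, miR-24-3p stood 9th among miRNAs in set 1 DKO cells, 14th in set 1 control cells, 6th in set 2 DKO cells, 15th in induced cells and 16th in uninduced cells. A share cannot tell more miR-24-3p per cell from fewer reads of other miRNAs, nor fewer cells of a type from less RNA per cell.

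The set 2 DKO share was 2.06 times that of uninduced cells (1.99 to 2.14), and thus past 2-fold, as were 11.9% of 371 miRNAs with at least 20 reads in the compared pools. Among 112 miRNAs with at least 500 reads this ratio stood 7th, beside a median of 1.01. In set 1 the ratio was 1.46 (1.36 to 1.58), under 2-fold, where 6.94% of 562 miRNAs were at least 2-fold higher and 30.6% at least 2-fold lower. It stood 15th of 62 there, beside a median of 1.25. Induced over uninduced cells gave 1.01 (0.972 to 1.05), where 3.8% of 421 miRNAs were at least 2-fold higher. Induced over DKO cells gave 0.489 (0.473 to 0.507), at least 2-fold lower as were 11.9% of 394 miRNAs, and rank 111 of 119. The miR-200 family itself held 0.356% of reads in set 2 DKO cells, 8.98% in induced cells and 6.62% in uninduced cells. With the family taken out of the totals the set 2 DKO ratio was 1.93 (1.86 to 2.01).

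Some miRNAs held far more of set 1 than of set 2, led by miR-709 (12.5% in set 1 DKO cells and 12.4% in set 1 control cells, against 0.960% to 1.08% in the pools of set 2). Without the 9 of highest share among miRNAs at least 3-fold higher in set 1 control than in set 2 uninduced cells, miR-24-3p made up 2.96% of set 1 DKO reads and 2.34% of set 1 control reads, a ratio of 1.27 (1.18 to 1.36). Counting each position once gave a set 1 ratio of 1.31 (1.21 to 1.41). The set 1 difference thus kept its direction and lost part of its size under both.

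The cluster partners of miR-24-3p were also higher in the DKO pools of both sets, and the 5p arms of miR-24 in that of set 2. miR-23a-3p, processed from the same transcript as Mir24-2, held 5.82% in set 2 DKO cells and 3.21% in uninduced cells, a ratio of 1.81 (1.77 to 1.86). miR-27a-3p held 7.95% in set 2 DKO cells and 4.03% in uninduced cells, a ratio of 1.97 (1.93 to 2.02). The members encoded beside Mir24-1 had larger ratios, 3.47 (3.29 to 3.66) for miR-23b-3p and 3.03 (2.88 to 3.20) for miR-27b-3p. In set 1 the 4 partners had DKO ratios of 1.37 to 1.62, and miR-24-3p lay inside that range.

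The 5p arm of Mir24-2, miR-24-2-5p, had 26 reads in set 1 DKO cells, 73 in set 1 control cells, 193 in set 2 DKO cells, 192 in induced cells and 121 in uninduced cells. Its set 2 DKO ratio was 2.39 (1.89 to 3.02). The 5p arm of Mir24-1, miR-24-1-5p, had 8 reads in set 1 DKO cells, 17 in set 1 control cells, 30 in set 2 DKO cells, 17 in induced cells and 21 in uninduced cells, with a set 2 DKO ratio of 2.14 (1.18 to 3.93). In the various pools, miR-24-3p had 32.4 to 40.1 reads for each read of miR-24-2-5p, and 130 to 371 for each read of miR-24-1-5p. The intervals of both arms overlapped that of miR-24-3p in set 2. In set 1 they spanned 1, so that a DKO difference of these arms was not detectable at that depth.

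Across the 5 pools, the miRNAs whose log2 shares lay nearest to those of miR-24-3p after centring, among 107 with at least 50 reads in every pool, were miR-205-5p (distance 0.200), miR-93-5p (0.293), miR-23a-3p (0.298), miR-106b-5p (0.315), miR-30a-5p (0.349) and miR-466c-5p (0.472). miR-27a-3p stood 9th (0.528). miR-205-5p, an abundant miRNA of stratified epithelia, held 5.39% in set 2 DKO cells, 2.24% in induced cells and 2.56% in uninduced cells. miR-93-5p and miR-106b-5p share a seed and a cluster with each other. The distances rest on 5 values per miRNA and are a description.

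**Figure D2:**
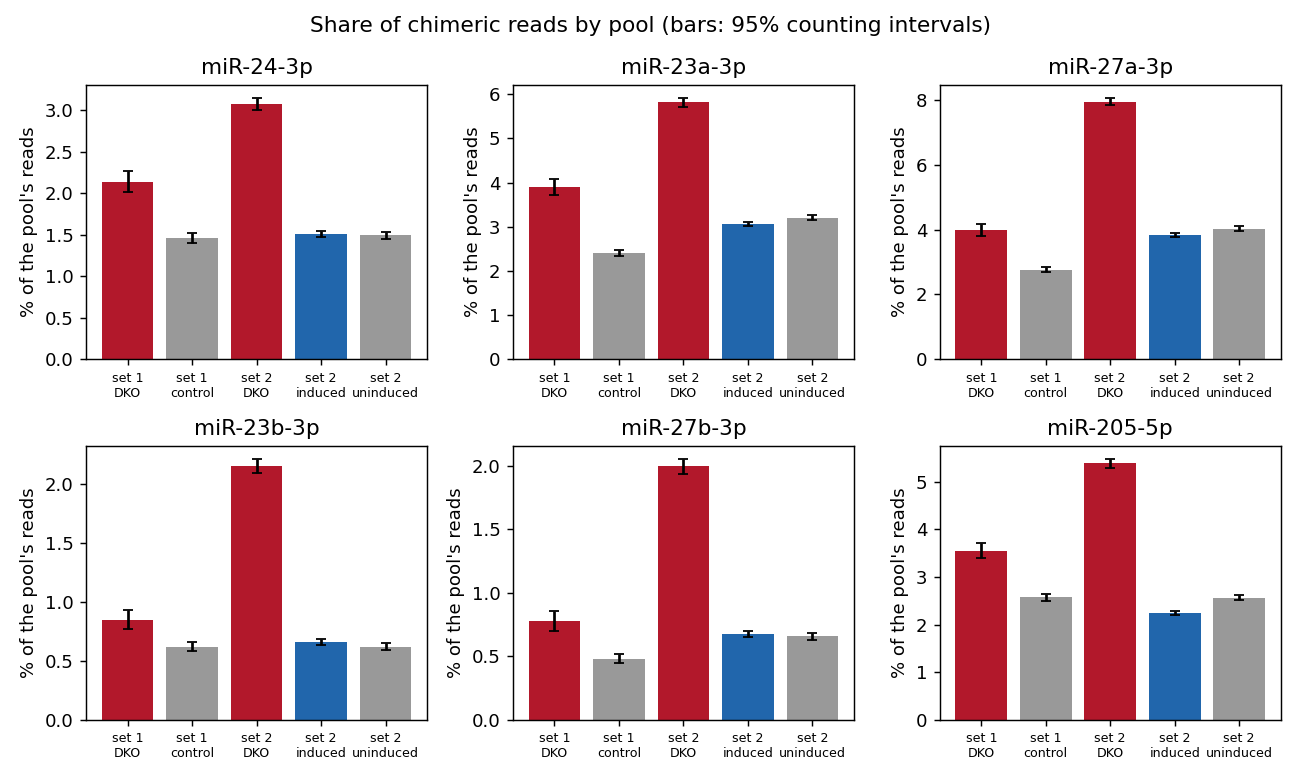
Percent of each pool's chimeric reads held by miR-24-3p, its cluster partners and miR-205-5p (bars; whiskers are 95% counting intervals; the vertical scales differ between panels). In every panel the DKO pool (red) is above the control of its set (grey), and the induced pool (blue) is at 0.873 to 1.06 times the uninduced one.

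Most miR-24-3p targets lay in protein-coding genes, on the strand of the gene. Of 19351 distinct chimeras, 88.0% fell in protein-coding gene spans, against 85.6% for other miRNAs, 3.49% in noncoding RNA genes, against 3.28%, and 3.51% outside gene spans, against 5.29%. Small structured RNA here means genes annotated as transfer, ribosomal or small nucleolar RNA, outside the mitochondrial genome. It held 1.71% of miR-24-3p chimeras (1.53% to 1.90%), against 0.362% for other miRNAs. This was the second highest share among 86 miRNAs with at least 2000 chimeras. Of these 330 chimeras 216 lay at a single small nucleolar RNA site, LOC115487311, described with the sites. Without it the share was 0.596% (0.492% to 0.715%), against 0.360%, and stood 13th of 86. Mitochondrial RNA, which includes mt-Rnr1, held 1.62%, against 2.90%. Pseudogenes and other genes, which include Rn18s-rs5, held 1.48%, against 2.02%. The ribosomal sites described below therefore lie outside the small structured RNA class. Where the strand of a gene was known, 13022 of 13180 miR-24-3p targets lay on it (98.8%), against 98.2% for other miRNAs.

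Of those 13022 targets, 24.1% (23.4% to 24.8%) lay within 2000 bases of the annotated gene end, where most 3′ untranslated regions lie, against 21.8% (21.7% to 21.9%) for other miRNAs. The nearest 250 bases held 5.69% of miR-24-3p targets, against 4.83%, and the next 250 bases 4.83%, against 3.82%. Beyond 32000 bases the order turned, with 40.6% of miR-24-3p targets, against 42.1%. The genes holding these targets had a median length of 64034.5 bases for miR-24-3p, against 71073 for other miRNAs. The shares were not adjusted for gene length. The annotated exons and untranslated regions were not used here, so these distances do not say which part of a transcript was bound.

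miR-24-3p chimeras were spread over many genes. At least 1 chimera was found on 5104 genes, at least 2 on 2920, at least 5 on 998 and at least 20 on 95, and 164 genes had 1 in all 5 pools. The 20 leading genes, ranked by their mean share of a pool's miR-24-3p chimeras, together held 5.98% of the chimeras. Neat1, the long noncoding RNA that builds paraspeckles, led with 7 chimeras in set 1 DKO cells, 16 in set 1 control cells, 82 in set 2 DKO cells, 114 in induced cells and 98 in uninduced cells. Its share was higher in the 3 pools of set 2 (1.36% to 2.25%) than in set 1 (0.746% in DKO cells, 0.301% to 1.53%, and 0.719% in control cells), though the set 1 DKO interval overlapped that of set 2 DKO cells (1.08% to 1.68%). Neat1 ran the same way for other miRNAs, with 0.493% of their chimeras in set 1 DKO cells, 0.567% in set 1 control cells and 1.26% to 1.54% in set 2. miR-24-3p made up 2.60% of all chimeras on Neat1, near its 2.05% of all chimeras in the pools together. The nuclear RNA Malat1 (65 chimeras, 1.75% of its own) and Ahnak, a giant scaffold protein (70, 1.88%), likewise had many chimeras of other miRNAs, 3657 and 3644 of them.

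Other leading genes had a far larger part of their chimeras from miR-24-3p. Over 6269 protein-coding genes with at least 20 chimeras of any miRNA this part had a median of 1.47%, and 13 genes exceeded 25%. Among genes with at least 20 miR-24-3p chimeras it was highest for 2610002M06Rik (61.5%), Sub1 (57.6%, 47.2% to 67.5%), Flcn (56.7%, 43.2% to 69.4%), Pcbp1 (46.7%), Entpd6 (45.7%), BC005537 (44.8%), Prss8 (27.4%), N4bp2l2 (24.3%), Cdkn1b (23.6%, 18.6% to 29.2%) and Furin (22.6%). Sub1 encodes a transcriptional coactivator, Flcn the tumour suppressor folliculin, Pcbp1 a poly(C)-binding protein, Entpd6 a nucleotidase, Prss8 the epithelial protease prostasin and Furin a proprotein convertase. These genes were chosen by this part, so the values are a description.

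Cdkn1b, which encodes the cyclin-dependent kinase inhibitor p27, had miR-24-3p chimeras in set 2 pools alone. It had 0 in set 1 DKO cells, 0 in set 1 control cells, 18 in set 2 DKO cells, 25 in induced cells and 19 in uninduced cells. The 0 of 3164 set 1 chimeras allow a share of up to 0.0948%, under the set 2 shares of 0.298% to 0.437%. Other miRNAs were ligated to Cdkn1b in set 1, with 26 chimeras, and in set 2 with 175. As shares of their chimeras these were 0.0298% in set 1 DKO cells, 0.0130% in set 1 control cells and 0.0206% to 0.0268% in set 2. Sub1 ran the same way, with 1 miR-24-3p chimera in set 1 and 56 in set 2. Other miRNAs had 7 chimeras on Sub1 in set 1 and 35 in set 2. As shares these were 0.0108% in set 1 DKO cells, 0.00260% in set 1 control cells and 0.00323% to 0.00684% in set 2. On both genes the set 1 shares of other miRNAs thus lay on either side of those in set 2.

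Pcbp1 ran the other way. It had 7 miR-24-3p chimeras in set 1 DKO cells, 14 in set 1 control cells, 0 in set 2 DKO cells, 9 in induced cells and 5 in uninduced cells. Other miRNAs had 2 chimeras on Pcbp1 in set 1 and 38 in set 2. As shares these were 0.00542% in set 1 DKO cells, 0% in set 1 control cells and 0.00432% to 0.00558% in set 2. Wdr44, which encodes a WD-repeat protein, had 12 chimeras in set 1 DKO cells and 0 in the 4 other pools, and all 12 began at the same base. That gene therefore entered the leading 20 through 1 ligation point in 1 pool, and 52 chimeras of other miRNAs lay elsewhere on it.

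**Figure D3:**
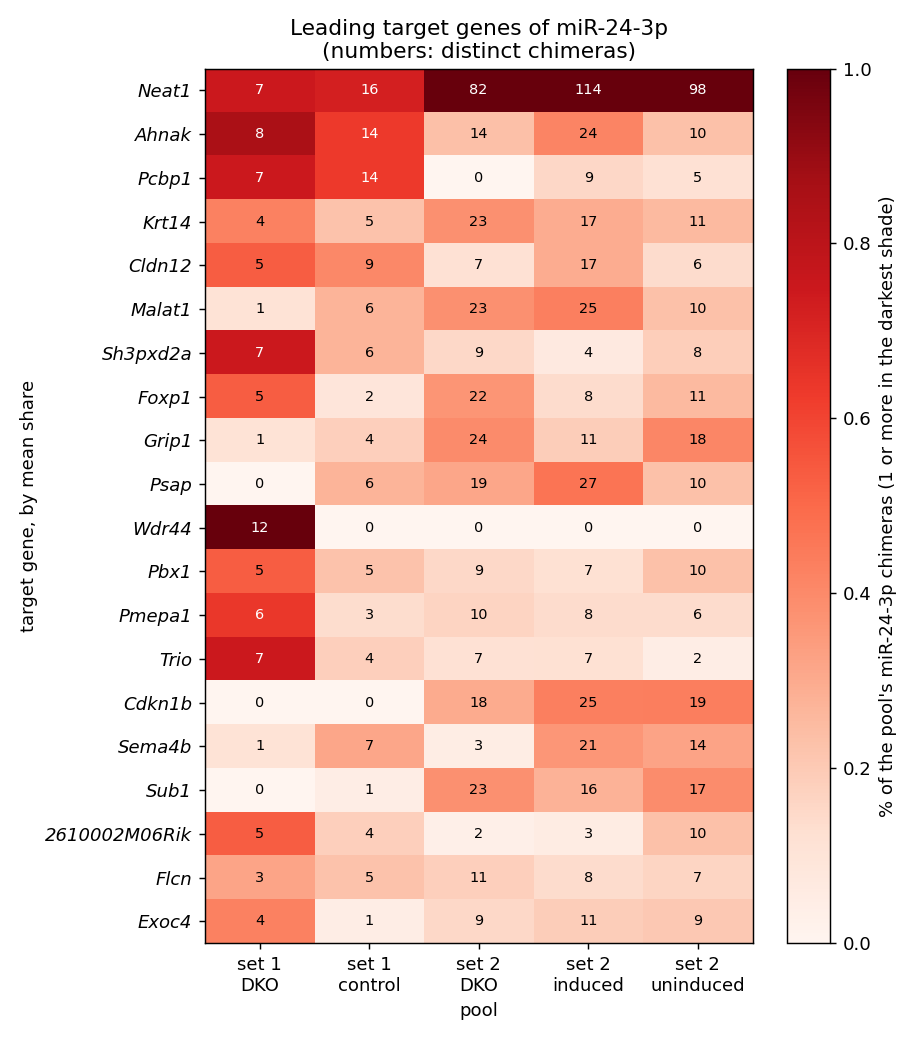
Share of each pool's miR-24-3p chimeras on the 20 leading target genes (colour, percent; rows ordered by mean share) with the number of distinct chimeras in each cell. Cdkn1b is empty in both set 1 pools, Wdr44 is filled in set 1 DKO cells alone, and Neat1 is dark in all pools of set 2.

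Most genes cited elsewhere as miR-24 targets had a miR-24-3p chimera, and most of these chimeras sat on 3 of the genes. Of 31 cited genes, 21 had at least 1 chimera and 9 at least 5. Among genes with at least 20 chimeras of any miRNA, 18 of 21 cited genes had one of miR-24-3p (85.7%). The same held for 65.3% of all 6269 protein-coding genes. The median number of chimeras of any miRNA was 93 on these cited genes, against 65 over all 6269. Together the 31 genes held 183 miR-24-3p chimeras, of which Cdkn1b had 62, Furin 21 and Bcl2l11, which encodes the cell death protein Bim, 19. Nlk (15 chimeras), Notch1 (13), Myc (10) and the activin receptor Acvr1b (10) followed. Of the genes without a miR-24-3p chimera, Pim1 had 117 chimeras of other miRNAs, Sp1 68 and Fscn1 54, whereas the cell cycle and DNA repair genes Aurkb, Chek1, Fen1 and Brca1 had only 12, 3, 9 and 18. Cdk4, with 10 chimeras of any miRNA, had 3 of miR-24-3p. miR-24-3p made up 5.18% of all chimeras on the list, with the largest number from Cdkn1b. The list was chosen with earlier results of these data known, so this part and the values per gene are a description. Per gene the median part was 2.38% over the 21 with at least 20 chimeras of any miRNA, beside 1.47% over all 6269, and 12 of 21 were above the overall 2.05%, beside 2468 of 6269.

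Bcl2l11 had 2 miR-24-3p chimeras in set 1 DKO cells, 2 in set 1 control cells, 3 in set 2 DKO cells, 8 in induced cells and 4 in uninduced cells, so it was found in every pool. Furin had 0 in set 1 DKO cells, 2 in set 1 control cells, 7 in set 2 DKO cells, 6 in induced cells and 6 in uninduced cells. Of 6 genes cited in epidermis or hair follicle, 4 had a chimera (66.7%). All 6 had at least 20 chimeras of any miRNA, and 65.3% of all 6269 such protein-coding genes had one of miR-24-3p. Sh3pxd2a, which encodes the podosome scaffold Tks5, had 34, with 7 in set 1 DKO cells, 6 in set 1 control cells, 9 in set 2 DKO cells, 4 in induced cells and 8 in uninduced cells. Plk3, a polo-like kinase, had 10, the actin-regulating kinase gene Pak4 had 2 and Arhgap19, which encodes a GTPase-activating protein, had 0. miR-24-3p made up 3.10% of the chimeras on Sh3pxd2a and 14.1% (6.97% to 24.4%) of those on Plk3.

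Of the structural lists, 28 of 35 actin cytoskeleton and migration genes had a chimera, 176 in all, with a median part of 2.39% and 2.23% of the list's chimeras, near the overall 2.05%. Actn1, an actin crosslinker, had 21 and Iqgap1, a cytoskeletal scaffold, 20. Of 28 cell and focal adhesion genes 23 had a chimera, 231 in all, with a median part of 1.95% and 2.14% of the list's chimeras. Among genes with at least 20 chimeras of any miRNA, 28 of 34 actin genes and 23 of 27 adhesion genes had one of miR-24-3p, beside 65.3% of all 6269 protein-coding genes. The median number of chimeras of any miRNA was 180 on these actin genes and 427 on the adhesion genes, against 65 over all 6269, so the listed genes were also more deeply covered. The integrin chain genes Itga3 and Itgb1 had 25 and 22, and Cdh1, which encodes E-cadherin, 24. Of 10 basal keratinocyte genes 8 had a chimera, 142 in all, with a median part of 2.88% and 3.91% of the list's chimeras. At least 20 chimeras of any miRNA lay on 9 of them, with a median of 480, and 8 of these 9 had one of miR-24-3p. Krt14, the basal keratin, had 4 in set 1 DKO cells, 5 in set 1 control cells, 23 in set 2 DKO cells, 17 in induced cells and 11 in uninduced cells, and Col17a1, a hemidesmosomal collagen, had 27 in all.

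Of 22 TGF-beta and BMP pathway genes 16 had a chimera, 63 in all, led by Acvr1b (10) and Smad3 (8), with a median part of 1.18% and 1.60% of the list's chimeras. Of 13 genes of the small RNA machinery 10 had one, 39 in all, led by Ago2 and Tnrc6a (9 each), with a median of 1.07% and 1.12% of the list's chimeras. Cell cycle genes (15 of 23 with a chimera, 50 in all, led by E2f3 with 8) had a median of 1.77% and 1.78% of the list's chimeras, and apoptosis genes (11 of 20, 27 in all, led by Apaf1 with 7) 1.65% and 1.56%. Of all 6269 protein-coding genes with at least 20 chimeras of any miRNA, 65.3% had one of miR-24-3p. At that depth, it was found on 16 of 18 TGF-beta and BMP genes and 10 of 12 small RNA machinery genes. It was also found on 13 of 15 cell cycle genes and 9 of 12 apoptosis genes. These lists had medians of 237, 180, 122 and 107 chimeras of any miRNA, against 65 over all 6269. Of 15 differentiated keratinocyte genes 4 had a chimera, with a median part of 0% over the 7 with at least 20 chimeras of any miRNA, and 34 of their 37 chimeras were on the cornified envelope genes Sprr1a (23 of 144 chimeras of any miRNA) and Sprr1b (11 of 170). Through these genes miR-24-3p made up 6.23% of the list's 594 chimeras, above the parts of the other lists named here. Of the list's 7 genes with at least 20 chimeras of any miRNA, 3 had one of miR-24-3p, with a median coverage of 51. Fibroblast, melanocyte, immune and endothelial genes had 0 miR-24-3p chimeras, beside 36, 59, 5 and 33 chimeras of all miRNAs.

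Overlapping miR-24-3p targets on 1 strand were joined into 13833 sites, of which 11622 were a single chimera. Only 269 sites had at least 5 chimeras, and they held 16.8% of all. These sites had a median width of 70 bases, 44 were found in all 5 pools, and 222 lay in protein-coding genes. Of 179 whose gene strand and end were known, 100 lay within 2000 bases of the gene end. Other miRNAs were ligated at most of them. At 30 sites there was no other miRNA, at 131 miR-24-3p held more chimeras than all others together, and the median part of miR-24-3p was 50%. The sites were joined from miR-24-3p targets and kept at 5 or more chimeras of it, which favours a high part. At 145 sites a miR-23 or miR-27 member was also ligated. These miRNAs were abundant, with miR-27a-3p alone at 2.76% to 7.95% of a pool's reads. No sites built from another miRNA were compared. These counts, and the one near the gene end, therefore have no background beside them. The most frequent other miRNA was miR-31-5p at 31 sites, miR-21a-5p at 25, miR-23a-3p at 21 and miR-27a-3p at 16.

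The site with the most chimeras lay in a small nucleolar RNA, LOC115487311 (chr9:15314064-15314147). It had 8 in set 1 DKO cells, 18 in set 1 control cells, 45 in set 2 DKO cells, 77 in induced cells and 68 in uninduced cells, 216 in all, against 13 of all other miRNAs. The chimeras had 27 distinct starting bases, so they were not copies of 1 ligation, though 25.1% of its 475 reads were found again, barcode included, in a second pool of their set, beside 4.63% to 11.5% of all miR-24-3p reads. Snord94, another small nucleolar RNA (chr6:71882607-71882653), had 34, against 7 of other miRNAs. The ribosomal sites were different. mt-Rnr1 had 147 miR-24-3p chimeras, against 14926 of other miRNAs, and the 3 leading sites on Rn18s-rs5 had 94, 48 and 33, against 6804, 1199 and 2174. In the mitochondrial gene ND5, 51 chimeras lay on 91 bases (chrM:12919-13009), against 28.

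The leading sites in messenger RNA lay at various distances from the gene end. All 62 Cdkn1b chimeras formed 1 site (chr6:134925385-134925485, plus strand), centred 90 bases before the annotated gene end, with 15 distinct starting bases. It held 64 chimeras of other miRNAs, led by miR-96-5p (11) and miR-182-5p (9). On Sub1, 55 of 57 chimeras lay at chr15:11984167-11984252 (minus strand), 2873 bases before the gene end, against 28 of other miRNAs, led by miR-27a-3p with 10. All 35 Pcbp1 chimeras lay at chr6:86524766-86524867 (minus strand), 336 bases before the gene end, against 20 of others, led by miR-99b-5p with 8.

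Flcn had 33 of its 34 chimeras at chr11:59792005-59792067 (minus strand), 628 bases before the gene end, against 7 of other miRNAs. There were 3 in set 1 DKO cells, 5 in set 1 control cells, 11 in set 2 DKO cells, 7 in induced cells and 7 in uninduced cells, so the site was found in every pool. Cldn12, which encodes a claudin, had 36 at chr5:5507570-5507724 (minus strand), 2632 bases before the gene end, against 17. At 35 chimeras, the site at chr7:110811020-110811141 lay in the spans of both Ampd3 and Rnf141 and is assigned to neither. Krt14 had 40 at chr11:100203213-100203282 (minus strand), 85 bases before the gene end, where 185 chimeras of other miRNAs lay, led by miR-16-5p (43) and miR-15b-5p (28). Psap, which encodes the precursor of the lysosomal saposins, had 31 at chr10:60301825-60301960 (plus strand), 708 bases before the gene end, against 63, led by miR-31-5p with 17.

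The next 4 sites were chosen after their values were seen. BC005537 had 26 chimeras at chr13:24809887-24809967 (plus strand) in all 5 pools and 0 of any other miRNA. At Plet1, 14 miR-24-3p chimeras lay among 425 of other miRNAs at chr9:50504739-50504885 (plus strand), of which 245 were miR-31-5p. The Furin site (chr7:80390002-80390063, minus strand) held 17, against 6, and the Bcl2l11 site (chr2:128161114-128161199, plus strand) 16, against 4.

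**Figure D4:**
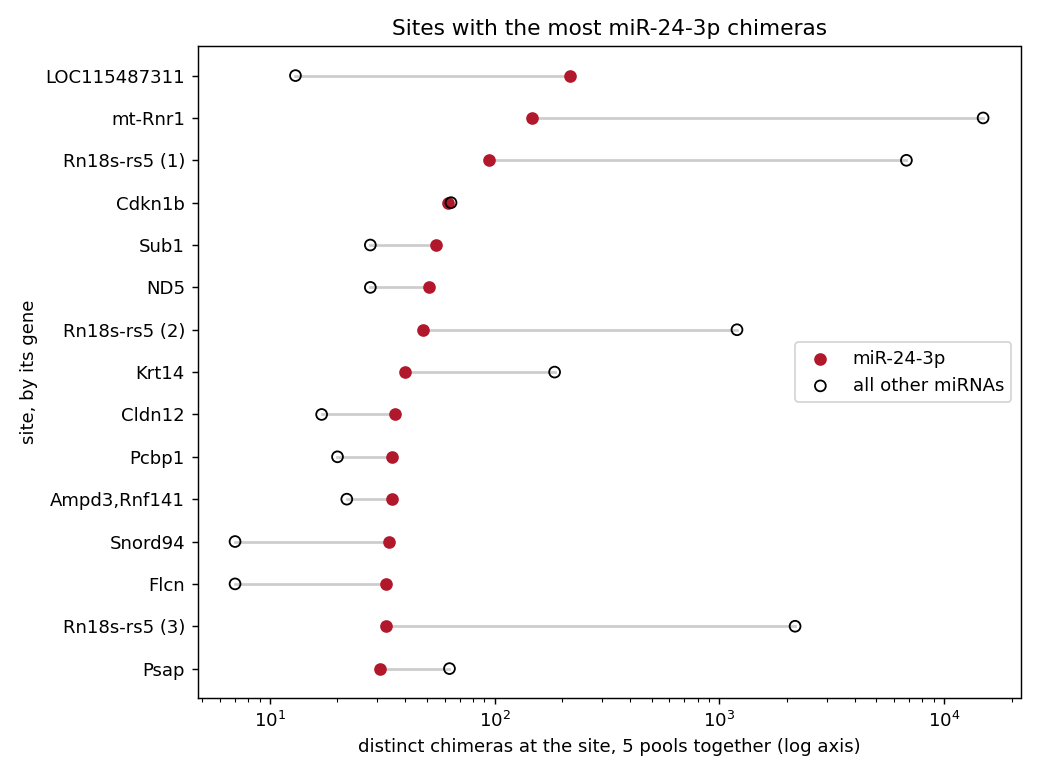
Distinct chimeras of miR-24-3p (red) and of all other miRNAs together (open) at the 15 sites with the most miR-24-3p chimeras, 5 pools together, on a log axis; rows are sites, named by their gene. Ribosomal sites are dominated by other miRNAs, LOC115487311, Snord94 and Flcn by miR-24-3p, and the Cdkn1b site holds 62 and 64.

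Within miR-24-3p chimeras, few genes had enough chimeras to be compared between pools. A gene was counted where its share differed at least 2-fold and the compared pools held at least 20 chimeras on it together. In set 2 DKO over uninduced cells 19 genes had enough chimeras, of which 2 were higher (10.5%) and 3 lower (15.8%), beside 9.64% and 16.8% of 1235 pairs of another miRNA and a gene. These shares are near those of the other pairs. In each comparison here the miR-24-3p genes were limited to protein-coding and noncoding RNA genes, whereas the other pairs were not. Ext1, a heparan sulfate polymerase, had 23 chimeras in DKO cells and 4 in uninduced cells, a ratio of 4.13 (1.41 to 16.4). Dusp8, a phosphatase of MAP kinases, had 20 in DKO cells and 3 in uninduced cells, a ratio of 4.79 (1.42 to 25.2). Both genes also had higher shares among chimeras of other miRNAs, 3.52 (2.97 to 4.19) for Ext1 and 2.23 (1.35 to 3.72) for Dusp8.

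Lower in set 2 DKO cells were Magi1, a junction scaffold (0.308, 0.0970 to 0.853), Hmga2, a chromatin protein (0.359, 0.142 to 0.843), and Plod2, a collagen lysyl hydroxylase (0.387, 0.131 to 1.04). Hmga2 had 9 chimeras in DKO cells and 18 in uninduced cells. The ratio of other miRNAs on Hmga2 was 0.383 (0.327 to 0.448), and on Plod2 0.472 (0.299 to 0.726), so both genes had a lower share in DKO cells for miR-24-3p and for other miRNAs. On Magi1 it was 0.902 (0.767 to 1.06), and the intervals of the ratios on this gene overlapped. Neat1, with the most chimeras, had 82 in DKO cells and 98 in uninduced cells, a ratio of 0.602 (0.443 to 0.815), beside 0.817 (0.775 to 0.861) for other miRNAs.

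Induced over uninduced cells also had 19 genes, 2 of them higher (10.5%) and 3 lower (15.8%), beside 3.67% and 3.98% of 2234 other pairs. Psap (2.03, 0.951 to 4.69) and Cldn12 (2.13, 0.800 to 6.59) were higher, and Hmga2 (0.417, 0.172 to 0.953), Grip1, a PDZ scaffold (0.459, 0.196 to 1.03), and Magi1 (0.483, 0.184 to 1.20) lower. Of these 5 intervals, that of Hmga2 alone left out 1. For other miRNAs the ratios on the 5 genes lay between 0.774 and 1.08. DKO and induced cells were both set against the same uninduced pool, which had 18 Hmga2 and 14 Magi1 chimeras.

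Induced over DKO cells had 24 genes, 3 higher (12.5%) and 4 lower (16.7%), beside 18.2% and 10.2% of 1595 other pairs. Sema4b, a semaphorin, had 21 chimeras in induced cells and 3 in DKO cells, a ratio of 7.31 (2.18 to 38.3), beside 2.16 (1.502 to 3.18) for other miRNAs. Its largest site, also chosen after its values were seen, at chr7:80225525-80225599 (plus strand), had 10 in induced cells and 0 in DKO cells, and miR-23a-3p was ligated there 13 times. Cldn12 (2.54, 0.9996 to 7.23) and Laptm4a, a lysosomal membrane protein (2.44, 0.880 to 7.74), were also past 2-fold, with intervals that held 1. The ratios of other miRNAs were 1.19 (0.760 to 1.91) on Cldn12 and 0.745 (0.571 to 0.975) on Laptm4a. Ext1 (0.136), Dusp8 (0.157), the transcription factor gene Foxp1 (0.380, 0.146 to 0.886) and Grip1 (0.479, 0.212 to 1.02) were lower, and the interval of Grip1 held 1. On these 4 genes the ratios of other miRNAs were 0.268, 0.480, 0.607 and 0.872.

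In set 1 only Neat1, Pcbp1 and Ahnak had at least 20 chimeras, and none of the 3 differed by 2-fold (0% in either direction, beside 17.8% higher and 7.24% lower of 152 other pairs). Their DKO ratios were 1.04, 1.19 and 1.36, each with an interval that held 1. Cdkn1b, with 18 chimeras in set 2 DKO cells and 19 in uninduced cells, had a ratio of 0.681 (0.337 to 1.37), and Sub1, with 23 in set 2 DKO cells and 17 in uninduced cells, one of 0.973 (0.497 to 1.94). Both intervals held 1 and also a 2-fold lower share, so such a difference was not detectable at this depth.

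**Figure D5:**
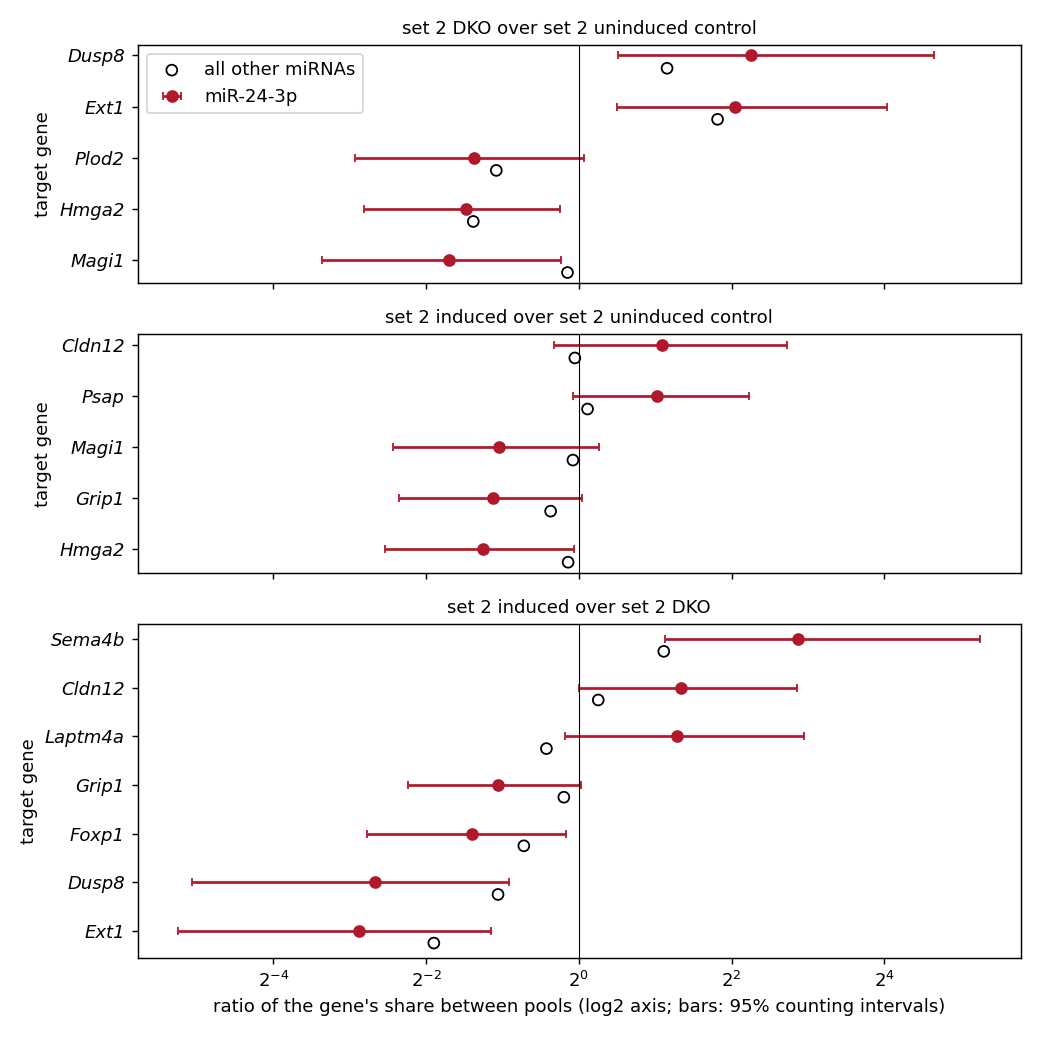
Ratio of a gene's share of miR-24-3p chimeras between set 2 pools, on a log2 axis (red, with 95% counting intervals), for the genes past 2-fold in each comparison, and the ratio for all other miRNAs on the same gene (open). Ext1 and Dusp8 are higher in DKO cells for both, and most intervals in the middle panel span 1.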

How the data were processed

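The deposited files hold positions, another kind of unit than counts: per the file headers, each line is 1 chimeric read with the position and strand of its target, a 4-base barcode and the ligated miRNA. The tools bedtools, Novoalign and cutadapt and the build mm10 are named, without versions, per the submitters' processing notes. Each group's libraries were pooled by the authors. Per the labels' protocols, cells were irradiated at 254 nm with 300 mJ/cm2 and Argonaute 2 was precipitated.

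Shares count reads; genes, sites and ratios of genes count distinct chimeras. Shares have exact Clopper-Pearson 95% intervals, ratios conditional exact ones (scipy 1.17.1, pandas 2.3.3, Python 3.11.15). The most a count of 0 allows is 3 chimeras of the total. A target was assigned to the mm10 RefSeq gene span holding its midpoint, mitochondrial and structured RNA first; 1039 of 19351 had no single gene. The gene strand, where given (54.1% of genes), was checked against the target. Sites join targets overlapping by at least 1 base. Coordinates count from 1. Ratio calls and site joining were tested on simulated data.

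Named genes are the 20 of highest mean share, the 3 leading members with at least 5 chimeras of each of 14 lists, the 5 largest ratios per direction past 2-fold and the 10 highest miR-24-3p parts; named sites are the 15 largest, and those of BC005537, Plet1, Furin, Bcl2l11 and Sema4b were added after their values were seen. Of the genes this rule names, 1 is not reported here. miR-24-3p and all lists were chosen with earlier results of these data known. Seed matches were planned on a genome and were run on RefSeq start windows instead.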

Additional observations from a re-analysis of the deposited data

How the results depend on the processing

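No paired analysis was possible because each group's libraries are 1 pool with no library names, and for the same reason no library could be left out. The set 1 DKO ratio of miR-24-3p was 1.31 with each position counted once and 1.27 without 9 miRNAs overrepresented in set 1. The set 2 DKO ratio was 1.98 with each position counted once and 1.93 without the miR-200 family in the total, both under 2-fold. Induced over DKO was 0.472 without reads shared within the set and 0.536 without the miR-200 family. Over all 6 alternatives the ratios spanned 1.27 to 1.57 (set 1 DKO), 1.93 to 2.14 (set 2 DKO), 0.997 to 1.04 (induced over uninduced) and 0.472 to 0.536 (induced over DKO). The cause of these shifts was not tested. Target genes numbered 998 with a minimum of 5 chimeras in place of 2920 with 2, and sites 30 with a minimum of 20 in place of 269 with 5, as the higher minimum implies.

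Counts of genes past the fold depended on the minimum and on what was counted. With a minimum of 10 chimeras they were 4 higher and 1 lower of 10 (set 1 DKO), 19 and 20 of 103 (set 2 DKO), 14 and 10 of 111 (induced over uninduced) and 29 and 20 of 131 (induced over DKO). Counting every read gave 6 higher and 8 lower of 29 for set 2 DKO, and 5 lower of 27 for induced over uninduced. For induced over DKO it gave 7 each way of 33. Without shared reads 1 gene of 17 was lower in set 2 DKO. At 1.5-fold, 6 genes of 19 were higher in set 2 DKO, and 5 of 19 higher and 6 lower in induced over uninduced. In induced over DKO, 5 of 24 were higher and 8 lower at that fold. For pairs of another miRNA and a gene, the share past the fold was computed only at a minimum of 20 and 2-fold. The counts at these other settings therefore have no background beside them. The seed match share was 28.6% where the window was on the strand of the target; the seed windows and their alternatives were chosen after seeing the data. No call reversed direction. Among share ratios, counts of genes and sites and the seed match share, 40 values were classed as unchanged and 28 as moved. Among values of single pools, genes and sites, 136 stayed within their interval (for sites, within 1.5 times the count) and 20 moved, among them the small structured RNA share without LOC115487311, which was chosen after seeing the data. Depth limits set 1 most, with 3 genes in the comparison.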

Other observations

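Few miR-24-3p reads ran on into the next base of the precursor, where a ligation and a read through the uncut hairpin cannot be told apart. In 11 of 19351 chimeras (0.0568%, 0.0284% to 0.102%) the target began at the base right after the mature strand, against 1928 of 813781 chimeras of other miRNAs (0.237%, 0.226% to 0.248%). The 813781 are a part of the chimeras of other miRNAs, not all of them. Of the 11, 9 lay at Mir24-2 and 2 at Mir24-1, and 7 came from set 1 control cells. Of the 1928 of other miRNAs, 664 came from set 1 control cells. The letters after the mature strand at Mir24-2 (chr8:84208897-84208921, plus strand, RefSeq, GRCm38.p6) are shown because these targets begin there.
Mir24-2 flank: gaguccagcccccuaggagcuggca
In all, 37 miR-24-3p chimeras lay in miRNA genes, 5 of them assigned to Mir24-2, 4 to Mir23a and 2 each to Mir27a and Mir27b.

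miR-24-3p reads repeated less often than those of other miRNAs. There were 1.06 to 1.11 reads for each distinct chimera in the 5 pools, beside 1.16 to 1.38 for all miRNAs. The median target was 47 bases long in set 1 DKO cells, 42 in set 1 control cells, 40 in set 2 DKO cells, 40 in induced cells and 38 in uninduced cells.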
